A study of Mus musculus with 3 samples.

Results

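Trim58, Trim10, Ube2o, Xpo7, Hemgn, Tspan33, Rac1, Rac2 and Tal2 are 9 genes of terminal red cell maturation and enucleation. They were taken by name from the 21938 protein-coding genes of the GENCODE mouse annotation, by their known roles and not by a threshold on these data. Earlier results of these data were known when the list was made. DNase-seq of livers from mouse embryos aged 13.5 days gave the open chromatin around them. All libraries belong to 1 group of strain C57BL/6N,129, labelled as homozygous for a globin mutation in which HS2 and HS3 are deleted. HS2 and HS3 are names used for enhancers of the β-globin locus control region, and all 3 biological replicates carry the deletion. The labels give each replicate a biosample entry of its own under a shared donor entry, and do not say whether livers were pooled or whether the embryos came from separate litters, so the spread between replicates may in part be technical. No liver without the deletion was analysed here, and no genotypes were compared.

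In the last divisions of the erythroblast the nucleus condenses, organelles and most proteins are cleared, in large part through ubiquitin, and an actin and myosin ring helps to push the nucleus out. The fetal liver is the main site at which definitive red cells mature before birth. DNase I cuts DNA where nucleosomes are displaced, so peaks of cuts mark promoters and distal elements, and a footprint is a short stretch inside a peak that is cut less than its surroundings. Accessible chromatin at a gene is not a measure of its transcription.

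The peak signal is the highest cut density in a peak, scaled by the authors to read depth. Each replicate had a shorter and a longer peak list, and the shorter one was used unless the longer one is named. A promoter was called open where a region found in every replicate (common to all 3) reached within 500 bp of any annotated start. Its signal is that of the strongest peak in the window, and 0 means that the list held no peak there. Peaks over 1 kb from every annotated start were called distal, and those inside a gene or within 50 kb of it were listed with the gene. Values are mean ± SD (n = 3) unless stated otherwise. The liver is a mixture of cells, and an element open in few cells cannot be told apart from one that is weakly open in many.

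The shorter lists held 28209 to 57314 peaks, and the most were in replicate 2. If 1 step of the signal scale is 1 cut, the depths were 79.36, 119.5 and 132.7 M cuts (M, 1e+06) in replicates 1, 2 and 3, but no file used here states them. Replicate 2 also gave the higher values: its signal was a median of 1.29 times the mean of replicates 1 and 3 over open promoters and 1.14 times over common distal regions. Of 12 red cell marker genes, 11 had an open promoter and only Alas2 had none, with summed signals of 44.8, 75.8 and 42.9 in replicates 1, 2 and 3. Of 12 hepatoblast markers none was open in all 3 replicates, but 2, 8 and 0 had a peak, with summed signals of 1.31, 6.56 and 0, and Alb, Afp and Dlk1 were among those at 0 in every replicate. These zeros hold for the shorter lists. In the longer lists Alb had a peak of 0.399 in replicate 3, Afp of 0.731 and 1.19 in replicates 1 and 2, and Dlk1 of 0.569 and 0.580 in replicates 2 and 3. Of 8 markers each, macrophages had 1 open in all 3 replicates, neutrophils 0, endothelial cells 0, megakaryocytes 2 (Itga2b and Vwf) and lymphoid cells 2 (Pax5 and Lck). The summed macrophage signal was 1.59, 3.98 and 1.73, and its defining genes Adgre1, C1qa, C1qb, Csf1r and Marco were at 0 in every replicate. In the longer lists only C1qb among them had a peak, of 0.326 in replicate 2.

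Of the 9 genes, 7 had a promoter open in all 3 replicates (77.8%), against 50.9% of all protein-coding genes. They were Trim58, Trim10, Ube2o, Xpo7, Tspan33, Rac1 and Rac2, whereas Hemgn had a promoter peak in replicate 2 alone and Tal2 had none. By replicate 7, 8 and 7 of the 9 had a peak at a start in replicates 1, 2 and 3, against 51.5%, 57.5% and 55.5% of all genes. With the longer lists all 9 were open, against 55.6% of all genes. Counting a replicate without a peak as 0, the median of the mean promoter signals was 2.80 over the 9 genes and 0.829 over all genes. Among the promoters open in all 3 replicates the median was 5.58, with quartiles of 2.95 and 8.81, and Tspan33 and Rac1 were the only members above it. Openness of promoters went with their CpG content: 19.7% of genes with a CpG ratio under the median were open, and 82.1% of the others. The observed-to-expected CpG ratio around the gene start was 0.954 for Ube2o, 0.904 for Xpo7, 0.861 for Rac1 and 0.790 for Tspan33, and 0.490 for Trim58, 0.441 for Tal2, 0.205 for Hemgn, 0.173 for Trim10 and 0.155 for Rac2. Trim10 and Rac2 were thus open with ratios under 0.232, the median of the genes that were not open.

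**Figure D1:**
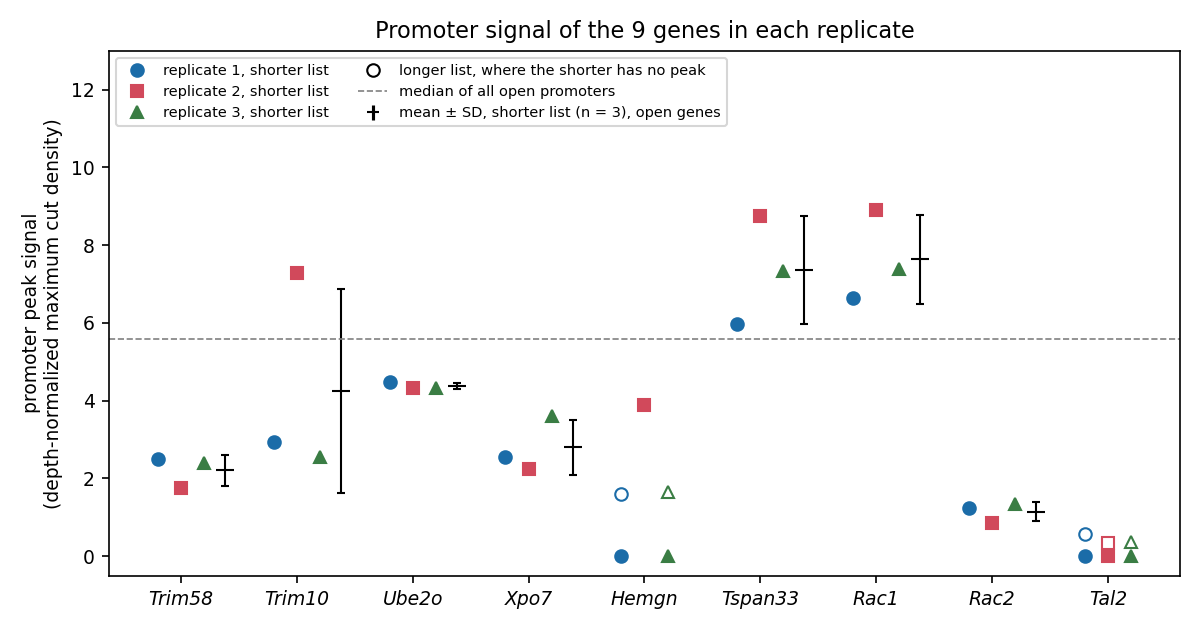
Promoter peak signal (vertical axis, depth-normalized maximum cut density) of each gene in the 3 replicates. Filled symbols are the shorter lists, open symbols the longer lists where the shorter one held no peak, black marks the mean ± SD of the 7 genes open in all 3 replicates, and the dashed line the median of all open promoters (5.58). Rac1 and Tspan33 lie above the line in every replicate, Trim10 in replicate 2 alone, and the other genes below it.

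In order of mean signal the open promoters were Rac1 (7.64 ± 1.14), Tspan33 (7.35 ± 1.38), Ube2o (4.37 ± 0.0853), Trim10 (4.25 ± 2.63), Xpo7 (2.80 ± 0.713), Trim58 (2.21 ± 0.399) and Rac2 (1.15 ± 0.251). The replicates of Tspan33 did not overlap those of Ube2o, and those of Trim58 did not overlap those of Rac2. The ranges of all other neighbours in this order overlapped. Within each replicate Rac1 still stood above Tspan33, by little in replicates 2 and 3, and Xpo7 above Trim58. The order of Trim10 and Ube2o, and that of Trim10 and Xpo7, changed between replicates. Among all open promoters these means stood between the 6.70th percentile for Rac2 and the 67.3rd for Rac1.

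**Figure D2:**
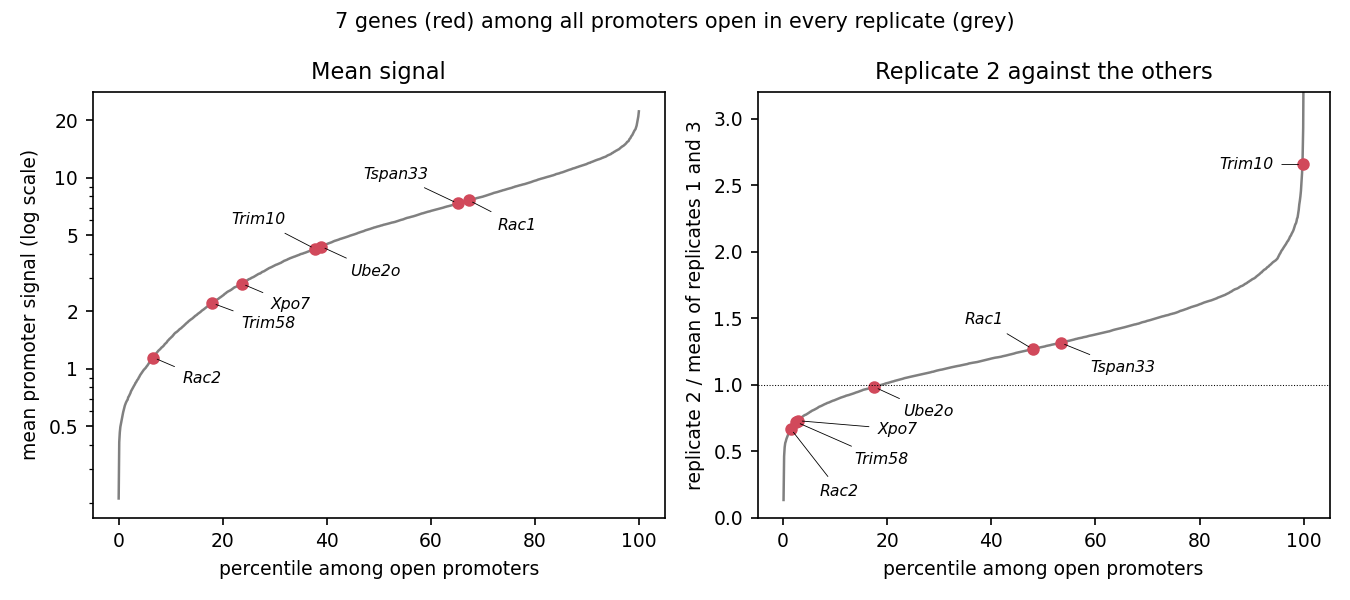
Left, mean promoter signal on a log axis, and right, the signal of replicate 2 over the mean of replicates 1 and 3, each against the percentile among all promoters open in every replicate (grey curve, 7 genes in red). Trim10 stands at the upper end of the right-hand curve with a ratio of 2.66, while Rac2, Trim58 and Xpo7 stand at its lower end with ratios of 0.668, 0.720 and 0.730.

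The ubiquitin enzymes come first. Trim58, an erythroid E3 ubiquitin ligase that binds the dynein motor and promotes enucleation, lies on the plus strand at chr11:58640465-58652404 (GRCm38/mm10). Its promoter signal was 2.49, 1.76 and 2.39 in replicates 1, 2 and 3, so that replicate 2 was the lowest, against the general trend. The promoter peaks held 4, 0 and 12 footprints. A second common region 0.786 kb into the gene, between the promoter window and the distal limit, had a signal of 2.48, 2.12 and 1.44 (2.01 ± 0.529), about that of the start itself.

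Trim10, a RING finger protein needed for terminal differentiation of mouse erythroleukaemia cells, lies on the plus strand at chr17:36869574-36877833. The signal at its start was 2.94, 7.28 and 2.55 in replicates 1, 2 and 3. Replicate 2 was 2.66 times the mean of the others, and only 34 of 11164 open promoters (0.305%) had a ratio as high. Without replicate 2 the mean was 2.74 ± 0.275 (n = 2), in place of 4.25 ± 2.63. The marker sums of red cells, hepatoblasts and macrophages given above were also highest in replicate 2, as were those of the other cell types, and their part in this difference was not tested. The promoter is shown here because it is poor in CpG and yet open. The 150 bases upstream of the start, on the plus strand, hold a CCAAT word at -110 to -106 and the word TGAGTCA at -56 to -50, both in capitals.
Trim10 promoter, chr17:36869424-36869573: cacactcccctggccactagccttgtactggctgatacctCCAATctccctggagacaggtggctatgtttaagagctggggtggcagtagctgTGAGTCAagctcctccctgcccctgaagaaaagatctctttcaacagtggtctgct
The word TGANTCA, known from the factor NF-E2 and from AP-1, was found in 3.53% of all such stretches and CCAAT in 27.2%. TGAGTCA lay inside the strongest peak and was touched by a footprint in none of the replicates.

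Ube2o, a ubiquitin-conjugating enzyme that tags ribosomal and other proteins for removal in reticulocytes, lies on the minus strand at chr11:116537740-116581447. The 3 replicates gave its promoter a signal of 4.47, 4.33 and 4.32, a coefficient of variation of 1.95%, against a median of 18.2% over all open promoters. A further common region, with peak midpoints 513 to 526 bp into the gene, was at 3.23, 2.19 and 2.58. Of the other annotated starts, that of Ube2o-203 had a peak of 2.73 in replicate 2 alone and that of Ube2o-202 had none.

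Of the nuclear proteins, Xpo7 is a nuclear exporter that in mouse erythroblasts helps to empty and condense the nucleus. The gene lies on the minus strand at chr14:70654246-70766628. The promoter of Xpo7 had a signal of 2.55, 2.24 and 3.60, highest in replicate 3. Dok2, which encodes a docking protein of blood cells, starts on the other strand within 500 bp of this open region. The strongest peak covered the outer start of Xpo7 in every replicate and did not reach that of Dok2. Over the Dok2 start the longer lists held separate peaks of 1.11 and 0.761 in replicates 1 and 2. Whether the open region also belongs to Dok2 was not tested. At Xpo7-206, a coding transcript that starts inside the gene, the signal was 0, 1.68 and 0.851, and replicate 1 had no base there with an FDR of cut density below 0.05.

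Hemgn encodes hemogen, a nuclear protein of blood progenitors and erythroblasts, on the minus strand at chr4:46393989-46413506. In the shorter lists its promoter signal was 0, 3.88 and 0 in replicates 1, 2 and 3, so that no common open promoter was called. In the longer lists it was 1.59, 3.88 and 1.65, and replicate 2 was 2.40 times the mean of the others, a ratio near that of Trim10. All these peaks lay within 500 bp of the inner start of Hemgn-202. In replicate 1 the value of 1.59 came from a peak with its midpoint 396 bp downstream of that start. The replicate 1 peak over the start itself was at 1.54. At the outer start of Hemgn-201, where the annotated gene begins, no list held a peak and no base had an FDR below 0.05. The lowest FDR around the inner start was 7.21e-04, 1.33e-45 and 1.80e-03 in replicates 1, 2 and 3. Counting the start of Hemgn-201 alone gave 0 in every replicate, and so did leaving out replicate 2.

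The tetraspanin Tspan33, a membrane protein of erythroid progenitors also called Penumbra, lies on the plus strand at chr6:29694222-29718559. Its promoter signal was 5.99, 8.75 and 7.32, with 2, 4 and 3 footprints in peaks of 180 to 220 bp. Each replicate held a single peak there. The summed width of all promoter peaks of a gene had a median of 340 to 360 bp over all open promoters, which is not the width of a single peak. The 150 bases upstream of Tspan33, on the plus strand, are shown as an example of a CpG-rich member. Capitals mark 2 CCAAT words at -98 to -94 and -68 to -64 and the GC boxes GGGCGG at -52 to -47 and -27 to -22, the first of which overlaps a CCNCNCCC word of KLF and Sp factors on the other strand.
Tspan33 promoter, chr6:29694072-29694221: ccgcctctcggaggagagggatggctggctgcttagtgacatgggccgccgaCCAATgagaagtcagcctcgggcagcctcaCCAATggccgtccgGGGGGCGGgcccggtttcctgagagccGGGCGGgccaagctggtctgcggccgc
GGGCGG was found in 35% and CCNCNCCC in 43.3% of all such stretches, on either strand.

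Rac1 and Rac2 are small GTPases that steer actin, and in mouse erythroblasts they take part in forming the contractile ring. Rac1, found in most cell types, lies on the minus strand at chr5:143503634-143528036. Promoter signals of Rac1 were 6.65, 8.89 and 7.38, and all 1001 bases around its start had an FDR below 0.001 in every replicate. Rac2, the blood cell form, lies on the minus strand at chr15:78559167-78572783, and its promoter signal was 1.25, 0.862 and 1.33. The lowest Rac1 replicate was thus above the highest Rac2 replicate. A stronger common region lay 0.990 kb into Rac2, in an intron, at 2.48, 3.33 and 2.15 (2.66 ± 0.607), above the start in each replicate. Rac2 lost its open promoter when only the upper 50% of each list was kept or when all lists were shortened to 28209 peaks. The promoter of Rac2 is shown on its own strand because it is the poorest in CpG of the 9. Capitals mark its only word of those searched in these 150 bases, CCACCCCC at -43 to -36, which matches CCNCNCCC.
Rac2 promoter, chr15:78572784-78572933: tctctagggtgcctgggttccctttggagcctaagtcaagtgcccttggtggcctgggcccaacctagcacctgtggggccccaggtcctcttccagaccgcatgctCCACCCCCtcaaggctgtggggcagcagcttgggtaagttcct
The Rac1 stretch, in contrast, held 4 GC boxes, of which those at -62 to -57 and -58 to -53 overlap.

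Tal2 encodes a basic helix-loop-helix protein related to Tal1 and lies on the plus strand at chr4:53779705-53788712. Its promoter signal was 0 in all 3 shorter lists, and 0.567, 0.335 and 0.362 in the longer lists. At its start the lowest FDR was 8.31e-04, 8.70e-04 and 2.82e-02, so the limit of 0.001 was passed in replicates 1 and 2, at 1 base in each. Among all genes 4.67% were open in the longer but not in the shorter lists, as Hemgn and Tal2 were.

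Not every open member had a footprint in each replicate. Only 5 of the 7 open members had a footprint in the promoter region in every replicate, against 97.8% of all genes with an open promoter. Trim58 had none in replicate 2 and Rac2 none in replicate 3. The other 5 held 2 to 10 per replicate, and the median over all open promoters was 6. Trim58 and Rac2 are the open members of lowest signal.

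Distal open regions were numerous around these genes. In all, 8 of the 9 had at least 1 region common to the 3 replicates inside the gene or within 50 kb, against 49% of all genes, 7 had at least 3, against 12.2%, 5 had at least 4, against 6.25%, and Ube2o and Hemgn had 5, a number reached by 3.08% of all genes. The median was 4 regions for the 9 genes and 0 for all genes, at median gene lengths of 19518 bp and 17425 bp. At least 1 region lay inside the gene in 4 members (Trim58, Ube2o, Tspan33 and Rac1), against 13.4% of all genes, and at least 2 in Trim58 and Tspan33, against 3.49%. A footprint was present in every replicate in 29 of the 30 regions, against 95.6% of all common distal regions. The 30 regions had mean signals of 0.894 to 5.18 with a median of 2.59, against a median of 1.76 for all 8810 common distal regions. None overlapped an exon. A limit of these counts is that only 8 of the 30 were nearest to the start of the member itself, and 22 were nearer to another coding gene.

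**Figure D3:**
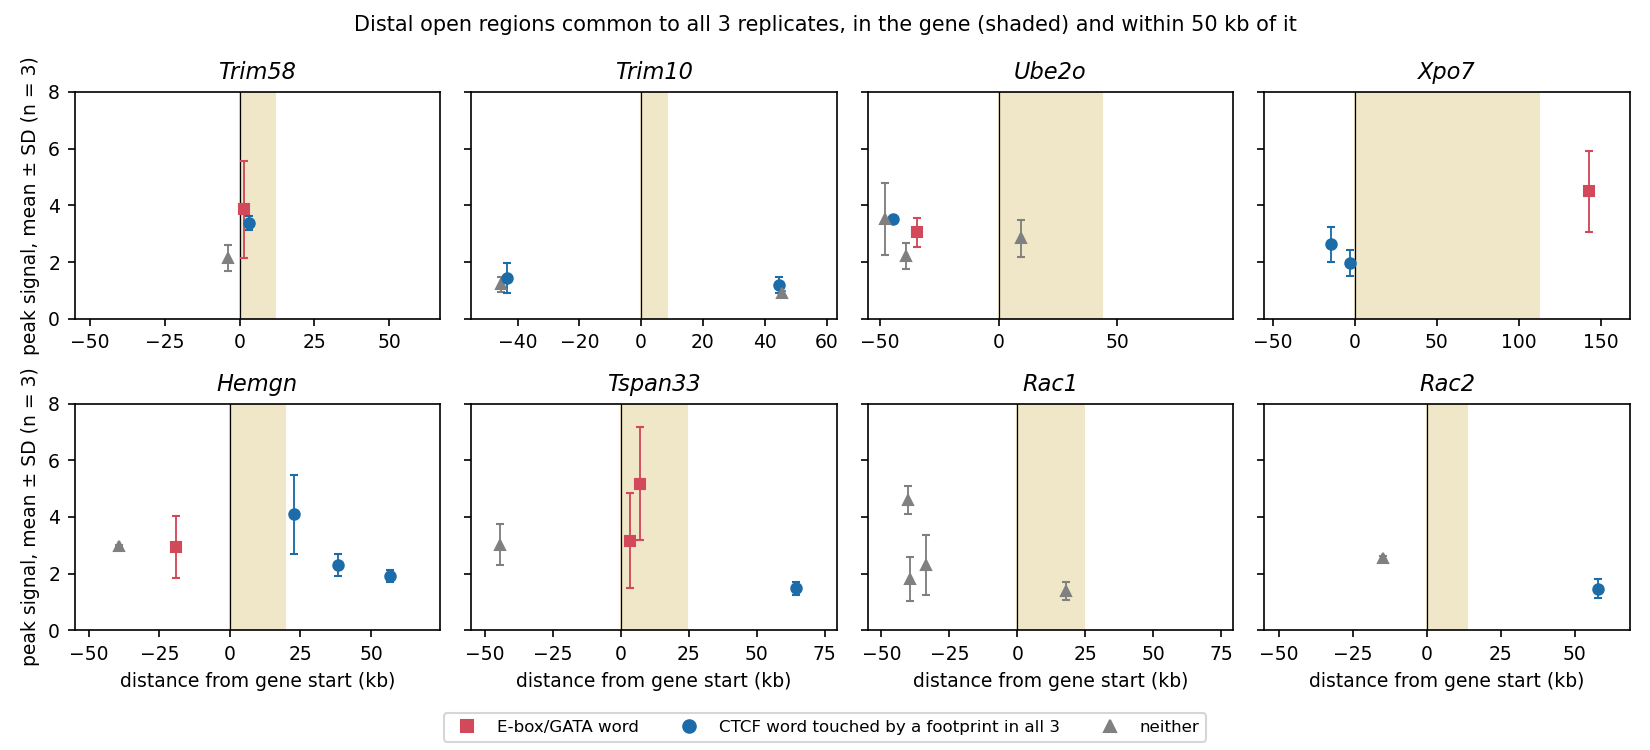
Distal regions common to all 3 replicates, by distance of their midpoint from the gene start in the direction of transcription (horizontal axis, kb) and by peak signal (vertical axis, mean ± SD, n = 3). The gene body is shaded. Squares hold an E-box/GATA word, circles a CTCF word touched by a footprint in all 3 replicates, triangles neither, and Tal2 has no region to show. The strongest, at 5.18, lies 7.04 kb into Tspan33, and the Trim10 regions all lie 43.4 kb or more away.

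Around the ubiquitin genes, Trim58 had 3 common distal regions. The strongest lay in an intron 1.38 kb from the start and had a signal of 3.05, 5.83 and 2.70 (3.86 ± 1.71). A second one 3.14 kb from the start had 3.64, 3.37 and 3.13 (3.38 ± 0.257). Both had higher means than the promoter itself (2.21 ± 0.399). Trim10 had 4 regions, all outside the gene and weak, at mean signals of 0.894 to 1.44. They lay in pairs 43.4 to 45.7 kb from its start on either side, nearer to H2-M10.6, Trim26 and Trim31. Ube2o had 5 regions, of which 1 was inside it, 9.37 kb from the start, at 2.28, 3.54 and 2.68. The other 4 lay 34.4 to 47.6 kb upstream, in or beside Rhbdf2, with means of 2.22 to 3.52.

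For the nuclear proteins, Xpo7 had 3 regions and none inside its 112383 bp. The strongest, at 3.84, 6.13 and 3.51 (4.50 ± 1.43), lay beyond its far end in an intron of Dmtn, the gene of the red cell membrane protein dematin, so that it may be counted with either gene. Another, 3.07 kb upstream of Xpo7, lay inside Dok2. Hemgn had 5 regions, all outside the gene and nearer to the start of Foxe1, Trmo or Anp32b. The strongest lay past its end, 22.8 kb from the outer start and 1.22 kb from the start of Trmo, at 2.86, 5.60 and 3.83 (4.10 ± 1.39). Within Hemgn the shorter lists held 7 distal regions, none common to all 3 replicates. The 3 strongest, 2.63, 6.36 and 17.6 kb from the outer start, were at 2.80, 4.17 and 3.40 in replicate 2, and the longer lists held a peak at each of them in all 3 replicates. Of the 41 distal regions near the 9 genes that were not common, 24 were found in replicate 2 alone and 13 in replicates 2 and 3. Hemgn accounted for 10 of those 24. The shorter list of replicate 2 was also the longest, with 57314 peaks against 28209 and 41319 in replicates 1 and 3. The same shares over all distal regions were not determined, so these counts do not set the genes apart.

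Near the membrane and actin genes, Tspan33 had 4 regions, of which 2 lay inside it. That at 7.04 kb had a signal of 4.32, 7.45 and 3.77 (5.18 ± 1.98), and that at 3.54 kb had 2.18, 5.10 and 2.23 (3.17 ± 1.67). Replicate 2 stood well above the others at both. Rac1 had 4, the strongest 40.02 kb upstream at 4.91, 4.84 and 4.04 (4.60 ± 0.487) and nearer to Fam220a. Rac2 had 2, the stronger 14.7 kb upstream at 2.56, 2.47 and 2.61 (2.55 ± 0.0736) and nearer to Cyth4. Tal2 had no common distal region, and a single peak of 0.469 in replicate 2 lay 40.3 kb upstream of it. The strongest distal region exceeded the promoter of the same gene in mean signal for Trim58, Xpo7 and Rac2, that is for 3 of the 7 open members, against 21.6% of all open genes with a common distal region. Among these only the Trim58 region was nearest to the start of its own gene. That of Xpo7 lay 142.6 kb from the Xpo7 start and 2.09 kb from that of Dmtn, and that of Rac2 was nearest to Cyth4.

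The 200 bp at the centre of each region were searched on both strands for short words known from factors of red cells and of promoters. GATA words (A or T, then GATA, then A or G) were found in 12 of the 30 distal regions (40%), against 31.3% of all common distal regions. A CTG followed by GATA after 8 or 9 bases, the composite word known from the Tal1 complex with Gata1, was found in 6 (20%), against 9.39%, and can overlap a GATA word. The CTCF word (CC, then AG after any 3 bases, then GGC after any 2) was found in 13 (43.3%), against 40.3%. It was added to the search after wide footprints shared by all replicates had been seen. TGANTCA was found in 3 regions (10%), against 6.74%. CCNCNCCC was found in 7 (23.3%), against 30.3%, and GGGCGG, with which it can overlap, in 5 (16.7%), against 16.5%. For TGTGGT (RUNX) the count was 6 (20%), against 16%, for CCAAT 7 (23.3%), against 21%, for CCGGAA (ETS) 1 (3.33%), against 5.69%, and for the NRF1 word (GCGCA followed by TGCGC) 0, against 0.272%. With 30 regions around 8 genes, several of them close together, these shares describe the regions and do not set them apart. In the 10 open promoter regions of the 7 genes, no GATA word was found (9.9% of all open promoter regions), CCNCNCCC was found in 6 (62.5% of all) and GGGCGG in 5 (62.4% of all).

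The 6 regions with the composite word belong to Trim58, Ube2o, Xpo7, Hemgn and Tspan33, and they include the strongest region of Trim58, Xpo7 and Tspan33. They are shown on the plus strand of GRCm38/mm10 with the composite word in capitals. Where the capitals begin with TATC the word is read on the other strand.
Trim58 +1.38 kb, chr11:58641731-58641930: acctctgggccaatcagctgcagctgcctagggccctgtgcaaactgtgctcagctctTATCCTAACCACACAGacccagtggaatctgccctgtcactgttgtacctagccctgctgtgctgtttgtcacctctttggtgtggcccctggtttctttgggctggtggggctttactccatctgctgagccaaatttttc
Ube2o -34.4 kb, chr11:116615781-116615980: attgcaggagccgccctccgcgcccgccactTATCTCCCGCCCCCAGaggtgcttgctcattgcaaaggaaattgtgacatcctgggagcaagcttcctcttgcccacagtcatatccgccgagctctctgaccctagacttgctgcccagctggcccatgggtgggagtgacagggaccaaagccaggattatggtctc
Xpo7, in Dmtn, chr14:70623951-70624150: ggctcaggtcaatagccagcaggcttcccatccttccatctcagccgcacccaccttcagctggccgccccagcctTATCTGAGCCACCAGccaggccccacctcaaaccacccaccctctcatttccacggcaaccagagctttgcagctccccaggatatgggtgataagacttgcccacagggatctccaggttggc
Hemgn -19.1 kb, chr4:46432438-46432637: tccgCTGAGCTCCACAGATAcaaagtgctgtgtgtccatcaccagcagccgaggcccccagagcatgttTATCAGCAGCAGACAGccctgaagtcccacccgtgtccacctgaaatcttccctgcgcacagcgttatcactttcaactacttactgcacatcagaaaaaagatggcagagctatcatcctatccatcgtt
Tspan33 +3.54 kb, chr6:29697657-29697856: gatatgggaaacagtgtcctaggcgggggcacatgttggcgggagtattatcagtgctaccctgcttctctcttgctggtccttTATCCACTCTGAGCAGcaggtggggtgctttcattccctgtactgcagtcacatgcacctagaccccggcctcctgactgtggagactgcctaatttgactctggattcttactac
Tspan33 +7.04 kb, chr6:29701171-29701370: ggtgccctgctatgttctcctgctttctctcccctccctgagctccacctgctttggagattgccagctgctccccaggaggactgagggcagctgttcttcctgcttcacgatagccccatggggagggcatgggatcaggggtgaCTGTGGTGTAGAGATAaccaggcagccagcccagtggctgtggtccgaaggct
A footprint touched the word in all 3 replicates at Ube2o alone, 3.33% of the 30 regions, against 1.92% of all common distal regions. In this Ube2o region the overlapping CCNCNCCC and GGGCGG words were also touched in all 3 replicates, but the overlapping GATA word in replicate 1 alone. Only 2 bases of the region lay in a footprint of every replicate. The composite word was touched at Trim58 in replicate 1, at Tspan33 +3.54 kb in replicates 1 and 3, and in the other 3 regions in none. At the inner start of Hemgn the composite word lay at +30 to +44 and a footprint touched it in replicate 2 alone.

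In all 6 regions replicate 2 exceeded the mean of replicates 1 and 3, by ratios of 1.31 (Ube2o) to 2.31 (Tspan33 +3.54 kb), with a median of 1.81. In the 11 member regions whose CTCF word was touched by a footprint in every replicate the ratios ran from 0.639 to 1.75, with a median of 1.29, and 6 were above 1. The 13 regions with neither ran from 0.830 to 2.08, with a median of 1.39, and 11 were above 1. Of all 30 regions 23 were above 1, so a ratio above 1 is not particular to the composite word. Over all common distal regions, split only by whether a word was present, the median ratio was 1.59 for the 827 with the composite word and 1.11 for those without it. It was 1.03 for the 3552 with a CTCF word and 1.24 for those without. Other words also went with a higher ratio in these regions. The median was 1.37 with a GATA word and 1.07 without, and 1.28 with TGANTCA and 1.13 without. Of the remaining words, only CCGGAA had a slightly lower median with it (1.129) than without (1.137). The composite word was found by sequence alone, whereas the CTCF group also rests on footprints in every replicate, so the groups are compared as a description. The marker sums of all 7 cell types were also highest in replicate 2, such as 7.71, 9.05 and 8.05 for lymphoid cells and 1.31, 6.56 and 0 for hepatoblasts in replicates 1, 2 and 3, and their part in these ratios was not tested.

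**Figure D4:**
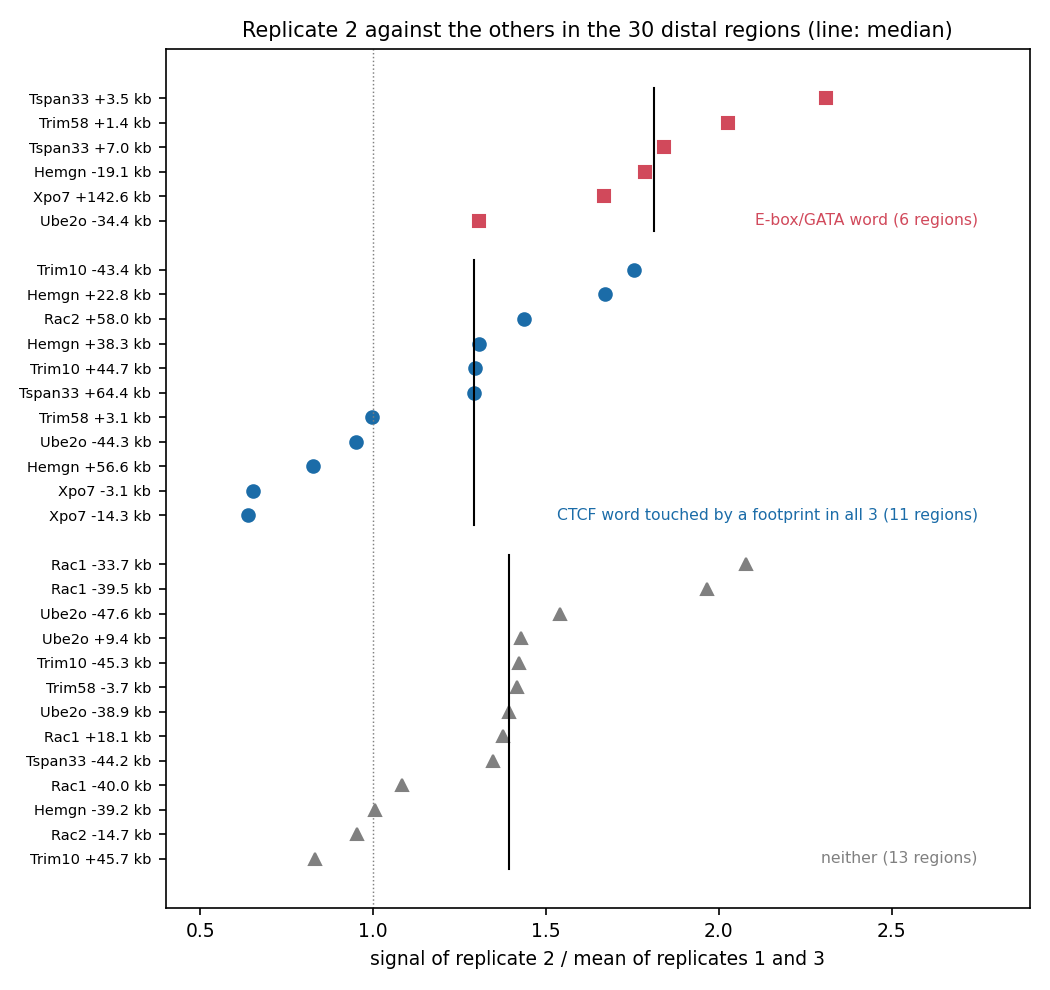
Signal of replicate 2 over the mean of replicates 1 and 3 (horizontal axis) in the 30 distal regions, grouped by the words they hold and named by gene and distance from its start. Vertical lines are medians (1.81, 1.29 and 1.39), and the dotted line marks equal signal. All 6 regions with the E-box/GATA word lie above 1, as do 6 of the 11 CTCF regions and 11 of the 13 with neither. The Xpo7 regions 3.07 and 14.3 kb upstream have the lowest ratios, at 0.651 and 0.639.

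CTCF, which holds chromatin loops at their base, is known for wide and stable footprints. The CTCF word was touched by a footprint in all 3 replicates in 11 of the 30 regions (36.7%), against 35.7% of all common distal regions, a share near the background. These 4 are shown, on the plus strand with the word in capitals, as examples in which the footprints over the word nearly coincided in the 3 replicates. Words that begin with GCC are read on the other strand.
Trim58 +3.14 kb, chr11:58643561-58643640: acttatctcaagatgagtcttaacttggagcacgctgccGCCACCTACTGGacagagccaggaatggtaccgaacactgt
Xpo7 -3.07 kb, chr14:70769671-70769750: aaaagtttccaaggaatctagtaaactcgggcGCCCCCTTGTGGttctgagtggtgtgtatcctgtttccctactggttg
Xpo7 -14.3 kb, chr14:70780921-70781000: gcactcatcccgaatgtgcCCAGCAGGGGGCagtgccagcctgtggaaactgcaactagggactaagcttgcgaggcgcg
Hemgn +22.8 kb, chr4:46390621-46390700: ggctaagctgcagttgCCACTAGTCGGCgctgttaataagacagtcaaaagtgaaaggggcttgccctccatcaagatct
Bases inside a footprint of every replicate numbered 55 in this Trim58 region, 42 and 34 in the 2 Xpo7 regions and 44 in the Hemgn region. Over all 11 regions they ran from 17 (Rac2, 58.02 kb from the start) to 55, and some shared bases follow from how the 11 were defined. In the 6 regions with the composite word, for which footprints were not used, they ran from 0 to 8, and in the 13 with neither from 0 to 52.

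**Figure D5:**
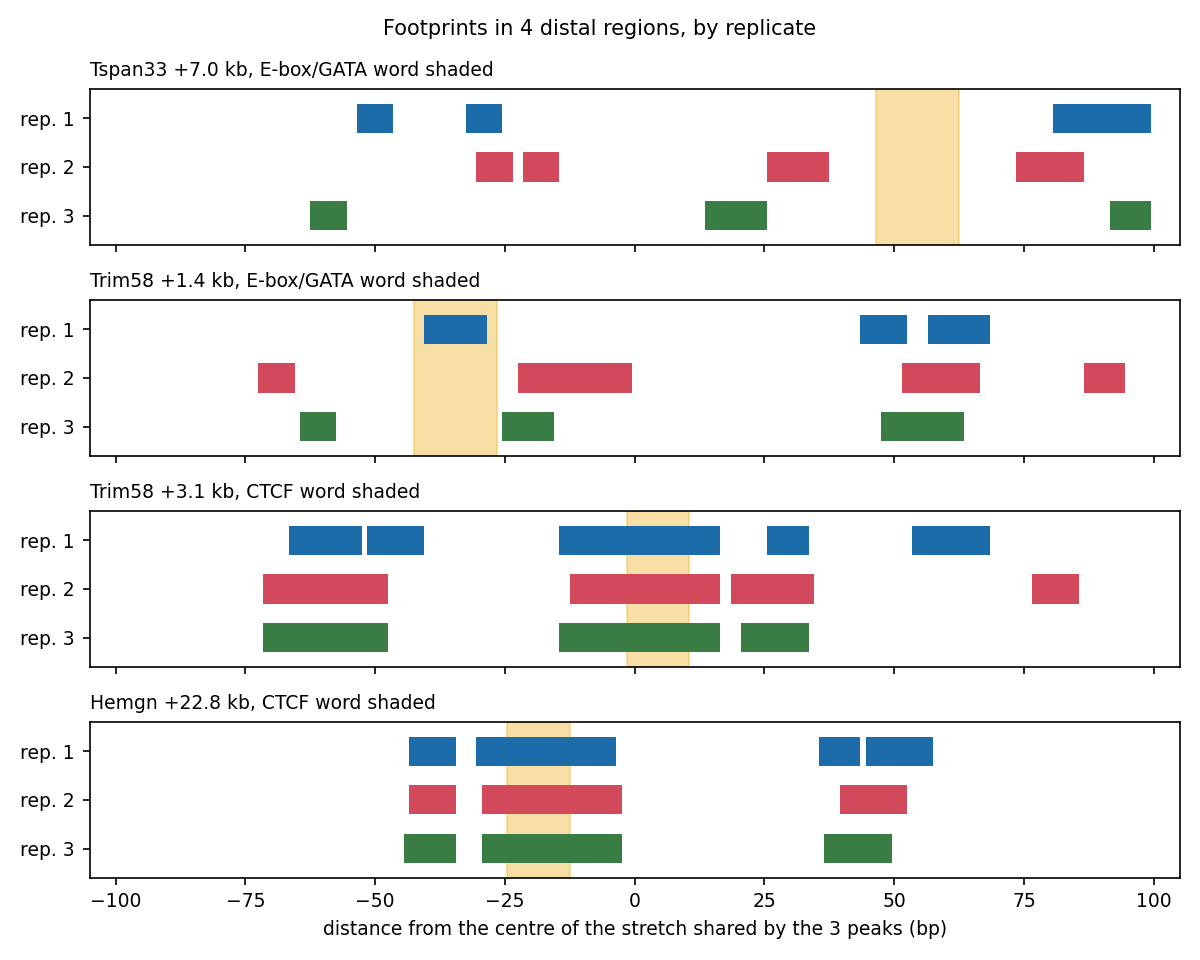
Footprints (bars) of replicates 1, 2 and 3 by distance from the centre of the stretch shared by the 3 peaks (horizontal axis, bp), with the E-box/GATA or CTCF word shaded. In the CTCF regions of Trim58 and Hemgn, chosen as examples of this, the bars line up over the word in every replicate. All bars of a region together, also those away from the word, share 55 and 44 bases there. In the Tspan33 +7.0 kb and Trim58 +1.4 kb regions they share 0 and 8 bases, and only replicate 1 has a bar over the word, in Trim58.

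Other genes of enucleation and maturation were nearly all open. Of 67 listed genes 64 had a promoter open in all 3 replicates (95.5%), against 50.9% of all genes. Openness went with CpG content, and 82.1% of all genes with a CpG ratio at or over the median were open. The CpG ratios of the 67 genes were not determined, so their share is not set apart from that of CpG-rich genes. Some of the 67, Epor among them, were also counted among the 12 red cell markers. All 15 genes of nuclear condensation were open, led by Xpo1, the main exporter of proteins (14.4 ± 4.15). The 7 motor and vesicle genes were open, led by clathrin heavy chain Cltc (9.39 ± 2.14) and dynactin Dctn1 (8.69 ± 1.01). The 12 ubiquitin genes were open, led by the ubiquitin-conjugating enzyme Ube2h (18.3 ± 3.65) and Rmnd5a (12.5 ± 2.53) of the ligase complex it works with. The 11 regulators were open, led by the Gata1 cofactor Zfpm1 (15.02 ± 4.11) and the erythropoietin receptor Epor (10.03 ± 3.01). Of the 22 actin and myosin genes 19 were open, led by Actb (16.7 ± 5.28) and the kinase Rock1 (14.4 ± 3.65). The 3 others are best known from white blood cells. Nckap1l was at 0, 0.895 and 1.05 in replicates 1, 2 and 3, Arhgdib at 0, 0.494 and 0, and Dock2 at 0, 0.502 and 0.814. Of the 64 open genes 48 were highest in replicate 2, and 75.3% of all open promoters were. The median of the mean promoter signals was 2.80 for the 9 members and 6.64 for the 67 genes.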

How the data were processed

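DNase-seq of 3 biological replicates was used as deposited by the authors. Peaks, footprints and FDR values were made per replicate on mm10 and not pooled, per the file headers and notes; aligner, callers and read length are not stated in the sources here. The deposited peak signal is a maximum cut density normalized to depth. The deposited FDR values, a p-value type of measure, list stretches below 0.05, and every deposited footprint carries the threshold of 0.01. Signals below 2 fell on a regular grid in each replicate, within 0.02 of a step for 100% of peaks.

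The annotation was GENCODE M21 and the assembly GRCm38. Peaks of the replicates were joined at 1 bp of overlap. Of the words of 36 bases around the starts of the members, at least 97.5% occurred once in the assembly; in the Trim10 region 43.4 kb upstream only 54.4% did. Named were all 9 members, neighbours starting within 500 bp of their open regions, and in each pathway list the 2 genes of highest signal and those not open. A few listed genes are not reported here by name. Counts were compared with those over all genes, with no p-values, since there is 1 group. The assignment of peaks to genes was tested on simulated data. Members and lists were chosen with earlier results of these data known. Python 3.11.15, NumPy 2.4.6, pysam 0.24.0, samtools 1.23.1 and Matplotlib 3.10.9 were used. The alternatives were the longer lists, the upper 50% of each list, lists of equal length, single replicates left out, a window of 1000 bp, 1 start per gene, 50% overlap, other distances and footprints wholly inside peaks.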

Additional observations from a re-analysis of the deposited data

How the results depend on the processing

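The number of members with an open promoter was 7, and 9 with the longer lists, 6 with the upper 50% of the shorter lists or lists of equal length (Rac2 was lost), and 7 under the other alternatives; leaving out each replicate in turn gave 7 to 7. The 30 common distal regions became 18 with the upper 50% of the shorter lists and 13 within 20 kb, and 29 to 43 under the other alternatives, with 30 to 43 when single replicates were left out. Members with a footprint in the promoter region of every replicate numbered 5, and 5 to 7 under the alternatives, 5 to 6 without single replicates, where Trim58 was added without replicate 2 and Rac2 without replicate 3. The 64 open pathway genes became 61 to 66, and 64 to 66 without single replicates. Of 72 promoter signals under alternatives, 68 moved by at most 1 SD. The other 4 were Rac2 with the upper 50% (0), lists of equal length (0.860) and a window of 1000 bp (2.66), and Tal2 with the longer lists (0.421). A mean of 3 values cannot move by 1 SD when 1 of them is left out, so those alternatives could only count as unmoved. The limit of 1 SD is also wide where the replicates differ. Hemgn went from 1.29 to 0 with 1 start per gene or without replicate 2, within its SD of 2.24. Without replicate 2 the Trim10 mean was 2.74, in place of 4.25 ± 2.63. No paired comparison of conditions was possible because there is 1 group. The depth of each library is not stated in the files used here, so no counting interval was given.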
